A study of Homo sapiens with 2 samples.

Results

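Collagen-rich border spots of 2 MDA-MB-231 tumors were compared with collagen-poor border spots of the same tumors. MDA-MB-231 is a human triple-negative breast cancer line with mesenchymal features. Both tumors were grown from a hypoxia fate-mapping version of the line, whose cells switch from a red to a green fluorescent protein once they have met low oxygen. They were untreated and taken 18 days after implantation, and a 10 µm fresh frozen section of each was placed on a Visium slide, an array that counts polyadenylated RNA in small printed spots by unique molecular identifiers (UMIs). All groups therefore share the line, the reporter, the age of the tumor and the lack of treatment, and the labels give neither the host strain nor whether the sections came from separate animals. Where they did not, the p-values below measure only the spread between 2 sections, which may be technical.

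Spots over tissue with at least 500 UMIs were used, 5377 of them, and 1650 lay within 5 array steps of the tissue border. A border was an off-tissue position in a connected off-tissue area of at least 5 positions, so the edge of the capture frame did not count. The border spots were then selected on measured values: C, the UMIs of COL1A1, COL1A2 and COL3A1 per 10000 UMIs of the spot. Spots at or above the 90th percentile of C in their tumor were called collagen-rich (92 in tumor 1 and 74 in tumor 2, 166 together), and spots at or below the median were called collagen-poor (460 and 366, 826 together). The remaining 658 border spots lay in between. The 3 genes that chose the spots were left out of the sums and tests, but all other genes were measured in the same spots. A gene whose UMIs vary with those collagens from spot to spot therefore differs between the groups because of the choice, and the contrast describes which genes do so.

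Fibrillar collagens are the rope-like scaffold of connective tissue. COL1A1 and COL1A2 encode the chains of type I collagen and COL3A1 that of type III collagen, and fibroblasts make most of both. The chains are hydroxylated and folded in the endoplasmic reticulum, secreted, trimmed at their ends by procollagen proteinases and cross-linked by lysyl oxidases. Around a growing tumor, fibroblasts, macrophages, vessels and fat of the host can form a capsule or border rich in such matrix. Only human features were counted, so host UMIs that matched human genes and UMIs of the tumor line cannot be told apart, and a host transcript is counted only as far as it resembles its human counterpart. The level of a gene in these sums is therefore not its level in host cells.

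The collagen-rich border spots lay closer to the edge and were shallower than the collagen-poor ones. Their median was 15745 UMIs in tumor 1 and 5987 in tumor 2, against 26986 and 18417.5 in collagen-poor spots. Of the collagen-rich spots 66.3% and 74.3% lay 1 step from the border in tumors 1 and 2, against 13.5% and 8.20% of the collagen-poor spots. Areas of adjoining low-UMI spots held 13.0% and 29.7% of the collagen-rich spots, against 6.09% and 7.38% of the collagen-poor ones. The sums compared below held 1698741 and 454959 UMIs in collagen-rich spots of tumors 1 and 2, against 12678132 and 6410132 in collagen-poor spots. Counts from spots matched on depth and position are given beside the main counts below. The 1627 spot barcodes that the libraries share name array positions and not cells.

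**Figure D1:**
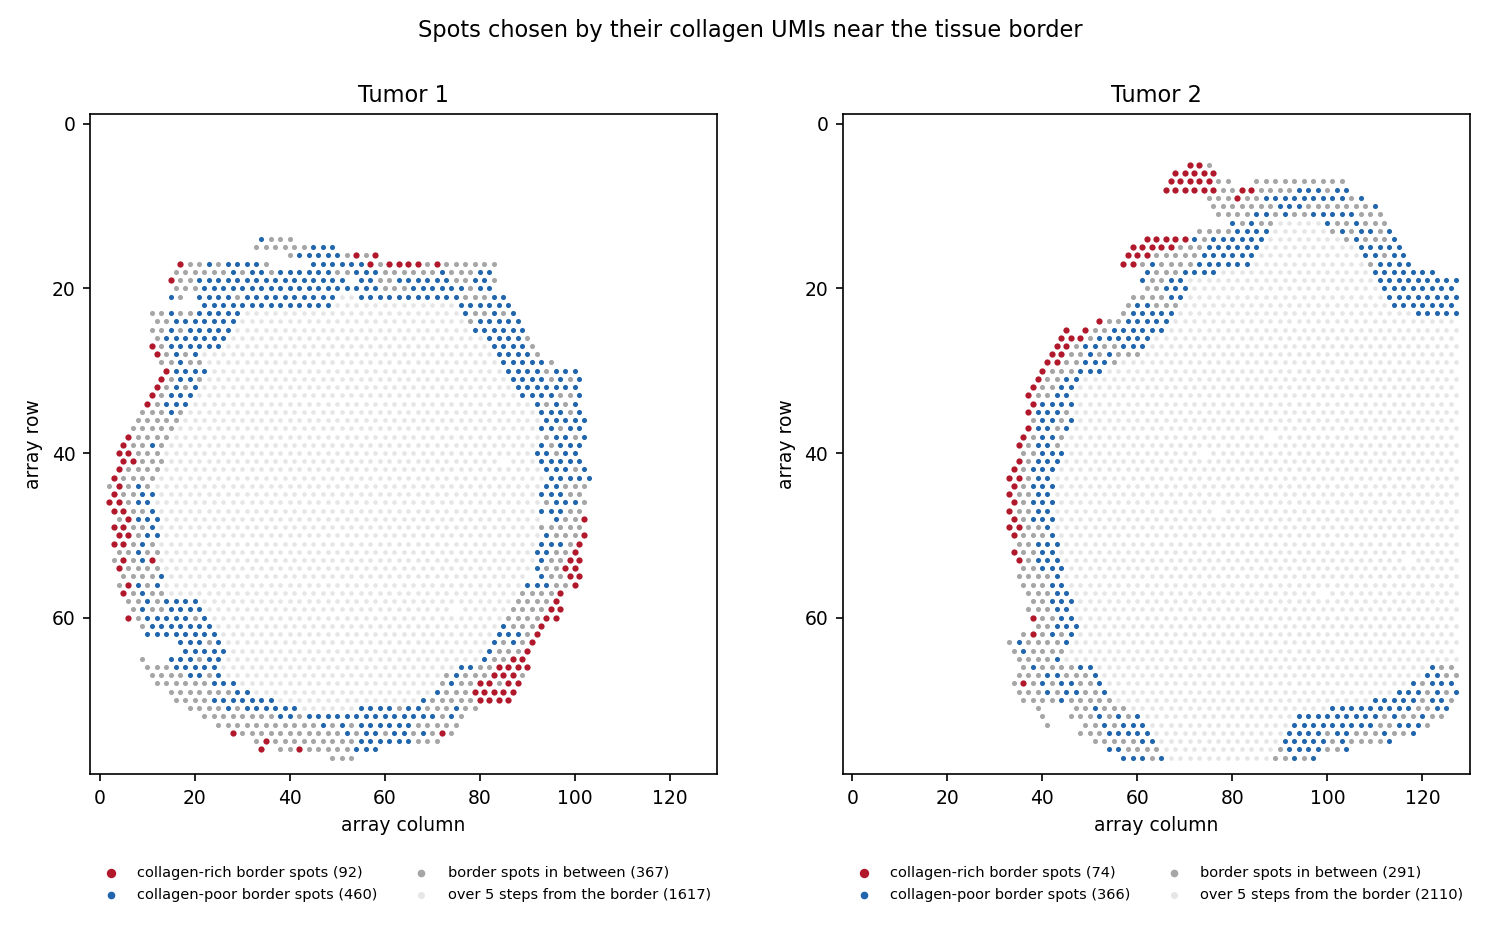
Array row against array column for the 2 sections, with 1 point per spot over tissue with at least 500 UMIs and the number of spots in each legend. The collagen-rich spots (92 and 74) form runs and patches along stretches of the outer edge, the collagen-poor spots (460 and 366) line most of the rest, mainly farther in, and the sides cut by the capture frame in tumor 2 hold no border spots.

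The collagens that defined the groups are given as a description. COL3A1 reached 3010 and 10450 UPM (UMIs per 1000000 UMIs of the sum) in the collagen-rich spots of tumors 1 and 2, against 138 and 269 in the collagen-poor spots. COL1A1 stood at 1976 and 4614 UPM, against 190 and 496, and COL1A2 at 1606 and 2086, against 161 and 195. Median C was 59.2 and 166 per 10000 in collagen-rich spots, against 4.89 and 9.81 in collagen-poor ones. At the upper threshold the values were nearly continuous, with the lowest C inside the collagen-rich group at 36.63 and 87.24 and the highest just outside it at 36.62 and 84.91. At the lower threshold the highest C of a collagen-poor spot was 8.565 and 16.56, and the lowest just above it was 8.583 and 16.6. When C was built from the type I genes alone, COL3A1, then not used for the choice, was 24.9-fold higher in the collagen-rich sums (18.5-fold in tumor 1 and 29.0-fold in tumor 2). When C was built from COL3A1 alone, COL1A1 was 8.53-fold and COL1A2 9.32-fold higher.

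Outside these 3 genes, collagen-rich spots carried more RNA for matrix proteins, for fibroblast and macrophage markers, for complement and acute phase proteins, and for globins. Of 12214 genes tested, 477 were higher in the collagen-rich spots (3.91%) and 29 were lower (0.237%) in edgeR's quasi-likelihood test with the tumor as a block and an adjusted p under 0.05. Of these 506 genes 505 had the same sign in both tumors, the exception being ACTA1. The median log2 fold change of all tested genes was 0.01, and every list below can be read against that median and those shares. In summed spots, more cells of a type and more RNA per cell cannot be told apart. Against collagen-poor spots matched 1 to 1 on steps and UMIs (90 and 38 spots a group), 243 genes were higher and 28 lower. Matched spots could differ by up to 1 log2 unit in UMIs, so depth was not made equal. The matched collagen-rich sums held 1686481 and 303027 UMIs in tumors 1 and 2, against 2222661 and 455982 in the collagen-poor sums. Among spots 1 step from the border, an alternative chosen after seeing the data, 266 were higher and 8 lower. Of the 477 higher genes 415 were tested in the matched comparison, all kept their direction there, and 232 passed again. That comparison reused 90 of the 92 collagen-rich spots of tumor 1 and 38 of the 74 of tumor 2. A kept direction is therefore no separate evidence.

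The genes with the highest fold changes included secreted proteins of connective tissue. PRG4, lubricin, a joint and fascia lubricant, stood at 57.4 and 388 CPM (counts per 1000000 after TMM normalisation) in collagen-rich spots of tumors 1 and 2, against 0.711 and 2.36 CPM in collagen-poor spots, a log2 fold change of 6.98 ± 0.26 (SE, adjusted p = 9.2e-20). SFRP2, a secreted modulator of Wnt signalling made by fibroblasts, stood at 64.8 and 364 CPM, against 2.45 and 5.31 CPM (log2 5.49 ± 0.24). Both genes were thus near 0 in collagen-poor spots and higher in tumor 2 than in tumor 1. PRG4 had 9 and 16 UMIs in the collagen-poor sums and would not have passed the low-count filter without the collagen-rich sums. The same holds for the leading genes LGI2 (3 and 3 UMIs), CPA3 (5 and 1), LTC4S (12 and 15) and CPXM1 (20 and 19). It holds too for SFRP2 (31 and 36), TNXB (25 and 17) and CXCL12 (27 and 31), which fell short in tumor 1. The fold changes and p-values of all these genes are therefore given as a description. ACTG2, smooth muscle gamma actin, was at 96.5 and 98.1 CPM in collagen-rich spots, against 21.8 and 12.7 CPM in collagen-poor spots. It is shown beside them as a gene that rose less steeply. Of 6 tested smooth muscle and pericyte markers 2 rose, ACTG2 and ACTA2.

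The 120 bases before the RefSeq start of these 3 genes (GRCh38.p14) are shown, chosen after their values were seen, so that genes that rose together can be compared at the promoter. Capitals mark CCAAT (read as ATTGG on the other strand), the TATA motif TATAAA and the CArG box, the motif that serum response factor binds, on either strand. PRG4 lies at chr1:186296153-186296272 (plus strand), SFRP2 at chr4:153789084-153789203 (minus strand) and ACTG2 at chr2:73892888-73893007 (plus strand).
PRG4: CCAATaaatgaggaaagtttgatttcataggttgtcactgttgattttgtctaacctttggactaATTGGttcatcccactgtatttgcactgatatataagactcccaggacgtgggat
SFRP2: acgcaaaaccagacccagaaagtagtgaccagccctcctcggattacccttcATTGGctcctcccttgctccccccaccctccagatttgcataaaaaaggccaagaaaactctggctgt
ACTG2: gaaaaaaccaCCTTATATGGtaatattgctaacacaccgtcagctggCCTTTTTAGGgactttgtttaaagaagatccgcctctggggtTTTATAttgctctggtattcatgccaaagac
PRG4 holds 2 CCAAT motifs and SFRP2 1, and ACTG2 holds 2 CArG boxes and 1 TATA motif. Over the same 120-base window, 20.4% of 35116 RefSeq promoters hold CCAAT, 5.63% hold TATAAA and 0.664% hold a CArG box. A match describes the letters and not a bound site. Within 250 bases, 4 of the 11 leading genes with a promoter in the table held CCAAT, against 32.0% of all promoters, and none held a CArG box, against 1.16% of all.

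Among the other fibrillar collagens, 2 of 8 members rose and none fell, with 3 tested. COL5A2, a chain of type V collagen that sits inside type I fibrils, stood at 441 and 762 CPM in collagen-rich spots, against 82.2 and 132 CPM in collagen-poor spots (log2 2.47 ± 0.14). COL5A1 rose less, at 219 and 315 CPM against 87.0 and 101 CPM (log2 1.47 ± 0.15). COL27A1 did not pass, with a log2 fold change of 0.59 (adjusted p = 0.56). The other 5 were not tested and had at most 7 UMIs in any sum. Of 16 beaded, network and fibril-associated collagens 3 of the 9 tested rose, namely COL16A1 (log2 2.58), COL12A1 (1.87), which decorates the surface of fibrils under tension, and COL6A3 (1.17), and none fell.

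Of 25 collagen assembly genes 23 were tested, and 10 rose and none fell. The highest fold changes were those of PCOLCE and SPARC, both secreted, while other secreted members did not pass. PCOLCE, which speeds removal of the collagen end piece, stood at 164 and 507 CPM in collagen-rich spots, against 30.5 and 42.2 CPM in collagen-poor spots (log2 2.98 ± 0.19). SPARC, a secreted collagen-binding chaperone, was the most abundant of the list that changed this much, at 896.9 and 2747 CPM against 151 and 309 CPM (log2 2.86 ± 0.14). SPARC was thus higher in the collagen-rich sum of each tumor. The end-trimming proteinases ADAMTS2 (log2 2.48) and BMP1 (1.77), and the cross-linking enzymes LOXL3 (1.68) and LOXL1 (1.54), also rose. Of the other secreted members, the cross-linking enzymes LOXL2 (0.50), LOXL4 (0.31) and LOX (0.00) and the PCOLCE relative PCOLCE2 (0.47) did not pass. Among the intracellular enzymes and chaperones, PLOD3, PLOD1 and PPIB rose by a log2 fold change of 0.59, 0.51 and 0.46, while P4HA1 (0.31), P4HA2 (0.45), P4HB (0.27), PLOD2 (0.26) and SERPINH1 (-0.19) did not pass. CREB3L1, a transcription factor of secretory cells, rose by 0.71.

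**Figure D2:**
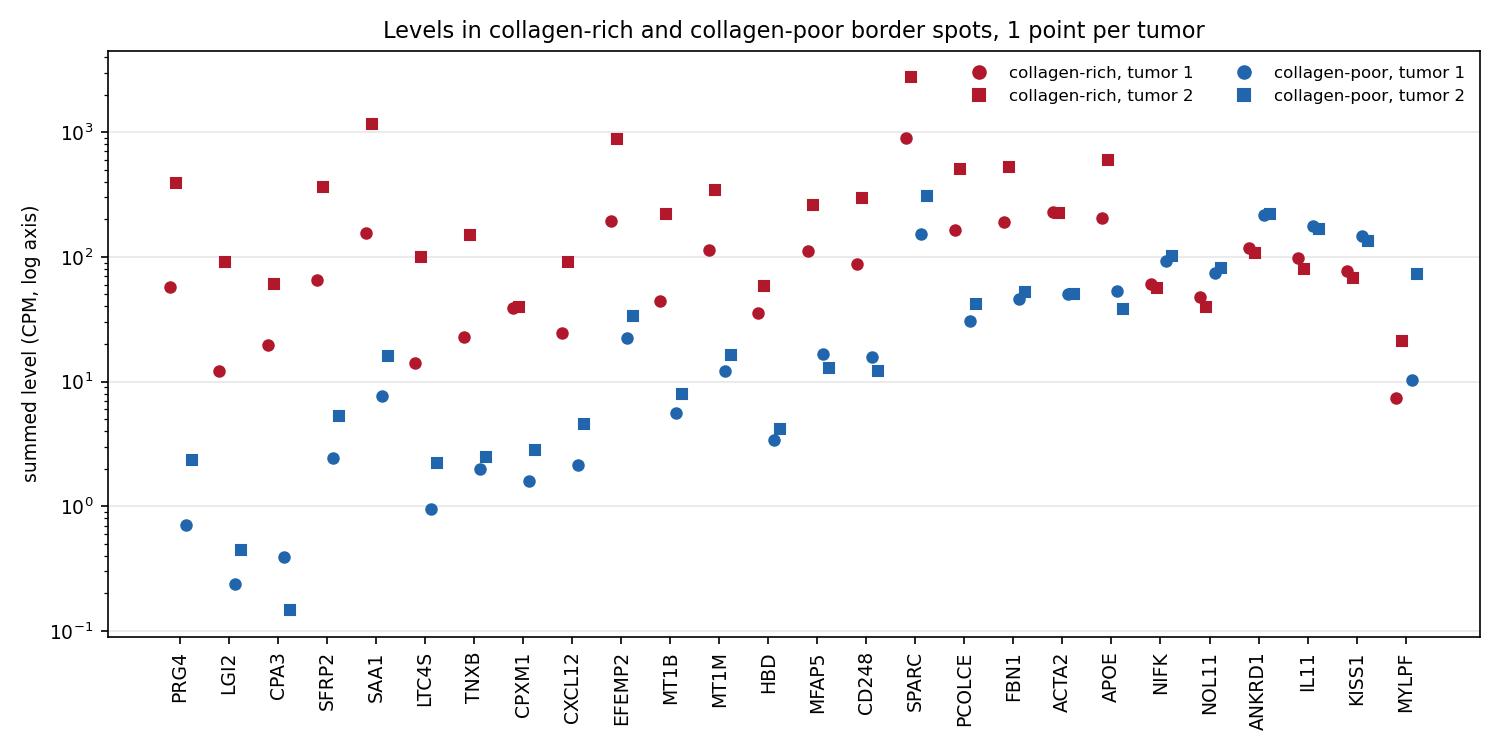
TMM-normalised CPM on a log axis for the 15 leading genes, 5 other genes that rose and 6 that fell, with 1 point per tumor in collagen-rich (left of each pair) and collagen-poor spots. The 15 leading genes were chosen as the highest called fold changes with the same sign in both tumors, so their separation follows from that choice. ANKRD1 and IL11 were likewise chosen among the 12 lowest, and for ANKRD1 the groups sit near 110 and 220 CPM.

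Matrix glycoproteins and elastic fibre proteins were the largest matrix group to rise. Of 26 members 23 were tested, 13 rose and none fell, and the median log2 fold change of those tested was 1.85. TNXB, a tenascin of loose connective tissue, stood at 22.6 and 150 CPM in collagen-rich spots, against 1.98 and 2.51 CPM in collagen-poor spots (log2 4.73 ± 0.38). With 25 and 17 UMIs in collagen-poor sums, TNXB passed the low-count filter only through the collagen-rich sums, so its rise is a description. EFEMP2, which recruits lysyl oxidase to elastin, stood at 194 and 878 CPM, against 22.4 and 33.5 CPM (log2 3.91 ± 0.22). The microfibril genes followed, with MFAP5 at log2 3.43 and FBN1, fibrillin, at 191 and 526 CPM against 46.1 and 52.3 CPM (log2 2.66 ± 0.19). FN1, fibronectin, which the tumor line also makes, stood at 802 and 2334 CPM, against 477 and 459 CPM, a log2 fold change of 0.75 in tumor 1 and 2.34 in tumor 2. TNC, the tenascin of remodelling tissue, rose by 1.09 with the tumors in the other order (1.47 and 0.49). ELN, elastin, rose by 4.35 from 2 and 8 UMIs in collagen-poor sums and passed that filter only through the collagen-rich sums. VCAN (2.90), EMILIN1 (2.62), THBS2 (2.53), CCDC80 (2.43) and FBLN1 (2.35) rose too. THBS1 (0.03) and TGFBI (-0.06) did not pass, at over 180 CPM in every sum.

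Small leucine-rich proteoglycans bind fibrils and set their diameter. Only PRELP (log2 4.63) and ASPN (2.31) of 8 members were tested, and both rose. In the collagen-poor sums PRELP had 6 and 2 UMIs and ASPN 16 and 16. Neither would have passed the low-count filter without the collagen-rich sums, so their rise is a description. DCN, decorin, had 12 and 2 UMIs in the collagen-rich sums of tumors 1 and 2 and 0 in both collagen-poor sums, which 12678132 and 6410132 UMIs stand behind. LUM had 1 and 0 UMIs in collagen-rich sums, against 6 and 5 in collagen-poor ones. These classical fibroblast proteoglycans were thus at or near 0 beside the collagen UMIs of the same sums.

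Basement membrane genes rose in part, with 6 of 15 members higher, none lower and 13 tested. NID1, which links laminin to type IV collagen, rose by log2 2.71 and LAMA4, a laminin of vessels, by 2.47, whereas COL4A1 (0.97), LAMB2 (0.94), LAMB1 (0.80) and LAMC1 (0.74) rose by less. Of the matrix proteases and inhibitors 5 of 21 rose and none fell, with 17 tested. They were MMP2 (log2 1.64), a gelatinase, its activator MMP14 (0.76), and the inhibitors TIMP2 (1.38), TIMP3 (0.90) and TIMP1 (0.64). Of 16 collagen receptors and integrins 13 were tested, all 13 with a log2 fold change above 0 and a median of 0.30. The integrin subunit ITGA6 (0.51) alone passed, while MRC2, the endocytic collagen receptor, did not (0.62, adjusted p = 0.19). In the TGF-beta pathway, all 16 members were tested and 3 rose: TGFBR3 (log2 3.37), a co-receptor, TGFBR2 (1.21) and the activin subunit INHBA (0.82). TGFB2 had a log2 fold change of -1.69 and did not pass.

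**Figure D3:**
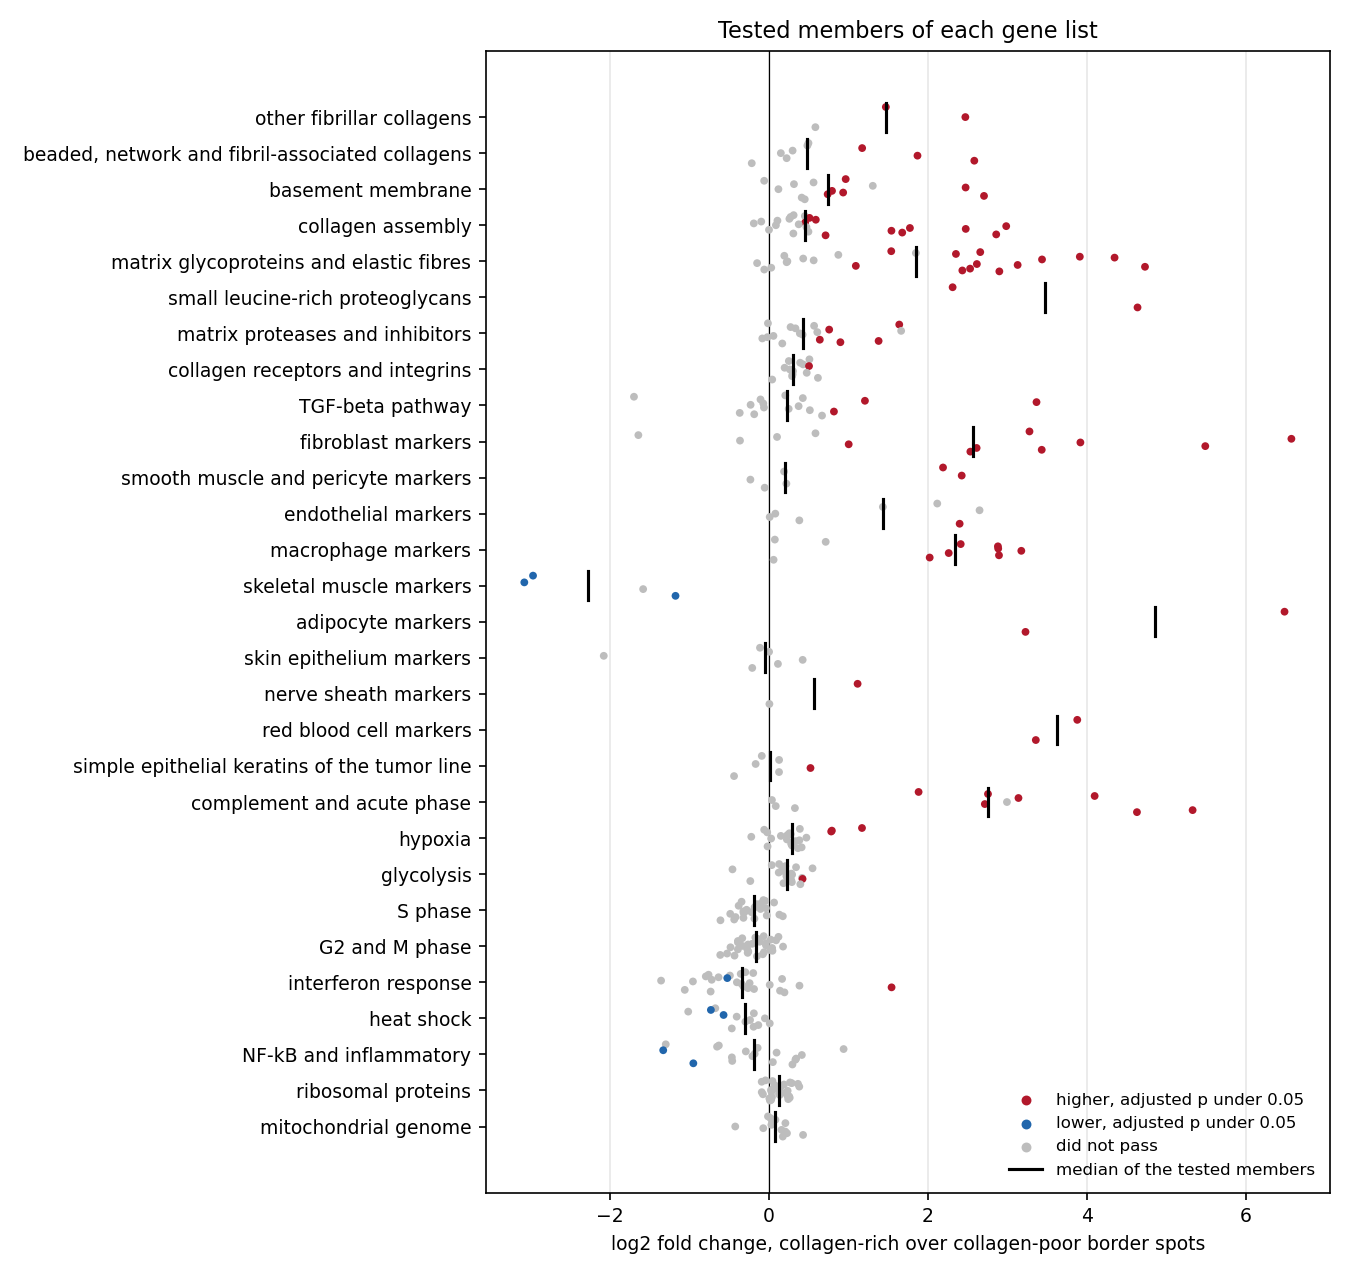
Log2 fold change of every tested member of each gene list (points), collagen-rich over collagen-poor border spots, with the list median as a black bar. Matrix, fibroblast, macrophage and complement lists reach log2 values above 2, while the cell cycle, ribosomal and mitochondrial lists stay close to 0 with no member called.

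Fibroblast markers are given as a description, since the spots were chosen for collagens that fibroblasts make. Of 16 markers 12 were tested, 8 rose and none fell, with a list median of log2 2.57. The summed markers stood at 331 and 1009 UPM in collagen-rich spots, against 97.7 and 129 in collagen-poor spots. PDGFRA, the receptor that marks many tissue fibroblasts, stood at 31.2 and 79.4 CPM, against 4.66 and 5.01 CPM (log2 3.28 ± 0.32), and CD248 (3.43) and the chemokine CXCL12 (3.92) rose similarly. DPT, dermatopontin, passed the low-count filter only through the collagen-rich sums, with 20 and 21 UMIs there, against 0 and 5 in collagen-poor sums. THY1 (0.10), PDGFRB (0.59) and CFD (-0.36) did not pass, and CLEC3B was at 0 in all 4 sums. FAP, a protease of activated fibroblasts, stood at 1.83 and 0 CPM, against 4.82 and 3.10 CPM, and did not pass (adjusted p = 0.43). Keratins that the tumor line is known to make summed to 1960 and 1630 UPM in collagen-rich spots, against 1862 and 1880 in collagen-poor spots. Keratin UMIs were thus present in both groups, so the collagen-rich spots were not free of epithelial transcripts. Among smooth muscle and pericyte genes, ACTA2, the actin of myofibroblasts, stood at 231 and 227 CPM against 50.1 and 50.3 CPM (log2 2.19 ± 0.15), with nearly equal levels in the tumors. ACTG2 rose as well, the other 4 of 6 tested members did not pass, and MYH11, DES, LMOD1 and CNN1 had at most 1 UMI in any collagen-rich sum.

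Markers of some other cell types rose with the collagens, while those of others mostly did not pass or could not be tested. Of 15 macrophage markers 10 were tested, 7 rose and none fell, and the sum was 685 and 1170 UPM in collagen-rich spots, against 367 and 320 in collagen-poor spots. APOE, a lipid carrier of macrophages, stood at 204 and 600.3 CPM, against 53.4 and 37.9 CPM (log2 2.89 ± 0.24), and FCER1G (3.17), TYROBP (2.88), C1QB (2.88), C1QA (2.41), AIF1 (2.26) and CTSS (2.02) rose too. FCER1G had 48 and 12 UMIs in collagen-poor sums and passed the low-count filter only through the collagen-rich sums. CD163 was at 0 in both collagen-rich sums. CPA3, a mast cell protease that no list held, was the third highest of the named genes, at 19.6 and 60.7 CPM, against 0.395 and 0.147 CPM. CPA3 passed the low-count filter only through the collagen-rich sums. LTC4S, a leukotriene synthase of mast cells and macrophages, rose by log2 4.80. It had 12 and 15 UMIs in collagen-poor sums and also passed the low-count filter only through the collagen-rich sums. Of 7 adipocyte markers 2 were tested, FABP4 and ADIPOQ, and both rose. ADIPOQ, adiponectin, stood at 11.6 and 23.4 CPM, against 0.0790 and 0.295 CPM. FABP4 had 27 and 10 UMIs in collagen-poor sums, and both genes passed the low-count filter only through the collagen-rich sums. Of the other 5, LPL had 2 and 0 UMIs in collagen-rich sums, against 18 and 5 in collagen-poor sums, and the rest had at most 4 UMIs in any sum. Beta globin, HBB, stood at 189 and 215 CPM, against 20.8 and 17.5 CPM (log2 3.36 ± 0.17), and HBD and HBA1 rose with it, although UMIs can be split between near-identical globins. HBA1, with 11 and 4 UMIs in collagen-poor sums, passed the low-count filter only through the collagen-rich sums. Of 13 endothelial markers 7 were tested and AQP1 (2.40), a water channel also found on red cells, alone passed, while PECAM1 and CDH5 had no UMI in either collagen-rich sum. No granulocyte or lymphocyte marker could be tested, and 9 of the 10 were at 0 in each collagen-rich sum. The part of these cell types in the other results was not tested beyond leaving out spots: without the spots highest in macrophage markers, an alternative chosen after seeing the data, 460 genes were higher and 227 lower.

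Complement and acute phase genes rose as a group, 7 of 16 with 11 tested and none lower. SAA1, serum amyloid A, an acute phase protein with the near-identical copy SAA2, stood at 155 and 1168 CPM in collagen-rich spots, against 7.67 and 15.9 CPM in collagen-poor ones (log2 5.33 ± 0.25). CFB, the serine protease of the alternative complement pathway, stood at 109 and 383 CPM, against 19.4 and 27.0 CPM (log2 3.14 ± 0.20). C3 (4.10), C2 (2.76), SERPING1 (2.72) and C1R (1.88) rose too. CFP, properdin, which stabilises the alternative pathway convertase and was on no list, rose by log2 2.93. The metallothioneins MT1M (3.78) and MT1B (3.88), metal-binding proteins of a family of near-identical copies, rose as well, so their separate levels are uncertain. IRF7, a regulator of interferon genes, rose by log2 1.54, while ISG15 fell by 0.52 on the log2 scale and the other 23 tested members of the interferon list did not pass.

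Few hypoxia and glycolysis genes passed the test. Of 24 hypoxia genes 3 rose, none fell and the median was log2 0.29. CA9, a hypoxia-induced carbonic anhydrase, stood at 155 and 156 CPM in collagen-rich spots, against 69.8 and 68.0 CPM in collagen-poor spots (log2 1.17 ± 0.16), and ANGPTL4 and VEGFA each rose by 0.79. Of 20 glycolysis genes PKM (0.43) alone passed. None of the 26 S phase and 30 G2 and M phase genes, of 30 ribosomal protein genes or of 13 mitochondrial genes passed. The cell cycle medians were log2 -0.18 and -0.16, and 0.13 and 0.08 for the ribosomal and mitochondrial lists. The heat shock genes HSPA1B, which shares UMIs with a near-identical copy, and HSPH1 fell by 0.73 and 0.57 on the log2 scale.

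Few genes were lower in collagen-rich spots. ANKRD1, a nuclear ankyrin protein known as a target of YAP signalling, stood at 117 and 107 CPM in collagen-rich spots, against 216 and 220.0 CPM in collagen-poor spots (log2 -0.94 ± 0.16, adjusted p = 1.0e-04). IL11, a secreted cytokine, stood at 97.1 and 79.4 CPM, against 178 and 168 CPM (log2 -0.95 ± 0.17), and KISS1, kisspeptin, stood at 76.98 and 67.7 CPM, against 146 and 134 CPM. Each of these 3 was lower in both tumors by similar amounts. Nucleolar genes NOL11 (log2 -0.77) and NIFK (-0.69) were also among the 12 lowest. CCL26, a chemokine that attracts eosinophils, stood at 9.16 and 9.34 CPM, against 27.1 and 13.1 CPM (log2 -1.33 ± 0.37). Of 11 skeletal muscle markers 4 were tested and 3 fell, MYH1 (log2 -3.07), ACTA1 (-2.96) and MYLPF (-1.17), the first 2 by the largest fold among the lower genes named here, and their sum was 13.6 and 44.7 UPM in collagen-rich spots, against 15.6 and 484 in collagen-poor spots. ACTA1 stood at 2.44 and 7.01 CPM in collagen-rich spots, against 1.74 and 130 CPM in collagen-poor spots. Its log2 fold change was 0.42 in tumor 1 and -4.14 in tumor 2. In tumor 2, 62 collagen-poor border spots held at least 3 muscle marker UMIs, against 2 collagen-rich ones. With muscle-marker spots left out ACTA1 was at log2 0.82 and did not pass, and 349 genes were higher and 7 lower.

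The rise was steep rather than gradual for some genes and even for others. Over the 10 deciles of C among border spots, ACTA2 climbed in both tumors at nearly every decile, from 28.5 and 21.5 UPM in the lowest to 164 and 191 in the ninth and 226 and 220 in the highest. PRG4 stayed under 3 UPM up to the eighth decile of tumor 1, then stood at 9.15 and 56.4 in the last 2, and in tumor 2 it reached 44.5 in the ninth and 367 in the highest decile. SFRP2, SAA1 and APOE had the same late shape, while SPARC rose throughout, with 447 and 910.5 UPM in the ninth decile and 881 and 2639 in the highest. IL11 was lower in the upper deciles, with 175 and 240 UPM in the lowest and 96.5 and 77.1 in the highest.

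**Figure D4:**
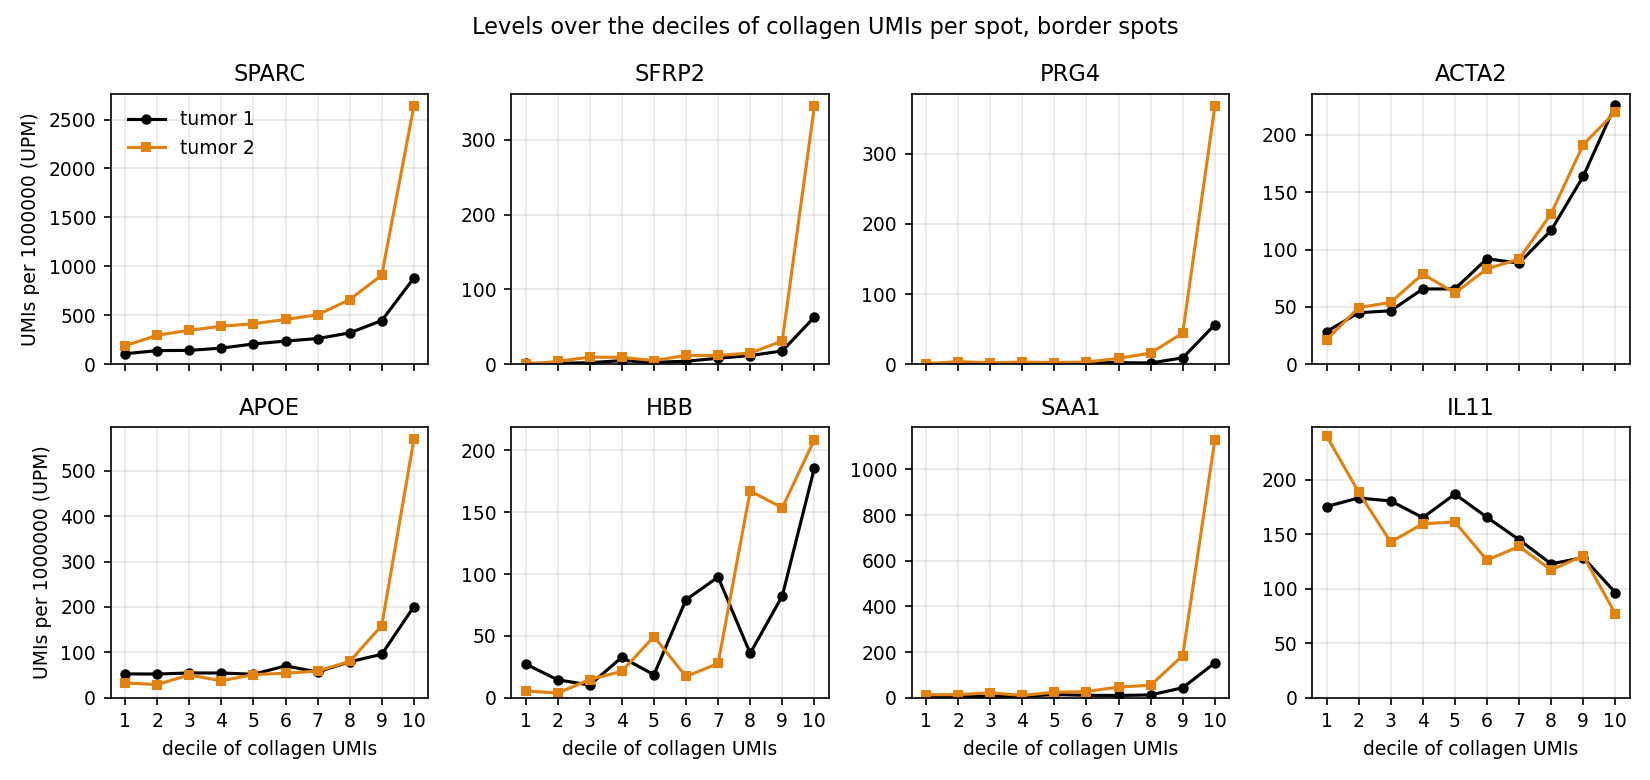
UPM over the 10 deciles of C in border spots for 8 genes, 1 line per tumor. PRG4, SFRP2, SAA1 and APOE stand out in decile 10, ACTA2 and SPARC climb throughout, HBB moves unevenly and IL11 is lowest in decile 10.

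Levels also differed by distance from the nearest collagen-rich spot. SAA1 stood at 149.9 and 1118 UPM in the collagen-rich spots themselves and at 36.4 and 219 at 1 step. PRG4 stood at 55.7 and 371 in those spots and at 5.84 and 21.4 at 1 step. ACTA2 fell off more slowly, with 112 and 140 at 1 step, 89.4 and 81.3 at 2 steps and 66.1 and 71.3 at 4 or more steps. IL11 ran the other way, with 126 and 116 at 1 step and 177 and 170 at 4 or more. The hypoxia genes CA9 and VEGFA were not highest in the collagen-rich spots. CA9 stood at 150.5 and 149.8 in those spots, at 181.8 and 157 at 1 step and at 124.9 and 166 at 2 steps. VEGFA stood at 104.9 and 123 in them, at 137.1 and 118.6 at 1 step and at 108.9 and 160.2 at 2 steps.

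The collagen-rich spots were not one uniform zone. They formed 20 patches of adjoining spots in tumor 1 and 11 in tumor 2, and 63 and 62 of the spots lay in the 3 and 4 patches of 10 or more spots. In tumor 1 the patch of 32 spots held PRG4 at 114 UPM, HBB at 276 and CPA3 at 50.9, whereas the patch of 21 spots held PRG4 at 44.8, HBB at 9.75 and no CPA3. The smaller of those 2 patches had more SAA1, at 240 against 119 UPM, and more CA9, at 234 against 87.2. The third, of 10 spots, held HBB at 935 and both adipocyte genes, with ADIPOQ at 43.7 and FABP4 at 65.6. The patch of 32 spots held both as well, with ADIPOQ at 26.65 and FABP4 at 43.6. In tumor 2 the patch of 18 spots, 88.9% of it in low-UMI areas, held PRG4 at 1180, SFRP2 at 1003, HBB at 1161 and APOE at 1869 UPM. The patch of 12 spots held PRG4 at 66.7, SFRP2 at 156 and HBB at 11.1, but ACTA2 at 300 against 118 in the patch of 18. ACTG2 ran the other way, at 11.1 in the patch of 12 against 177 in that of 18. The summed smooth muscle and pericyte markers did so too, at 333 against 413. The patch of 15 spots held PRG4 at 563 and no ADIPOQ or FABP4, with HBB at 51.9. These patch genes were chosen after their values were seen. Within the collagen-rich spots, the rank correlation of COL3A1 with SPARC was 0.69 and 0.76 over the 92 and 74 spots, with PRG4 0.54 and 0.56, and with SFRP2 0.56 and 0.61. The rank correlation of COL3A1 with ACTA2 was -0.06 and -0.21 and with TNC -0.23 and -0.38. These are descriptions over spots that share a library and a depth gradient, and neighbouring spots share cells.

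The same split of C among interior spots, over 5 steps from the border, gave a second contrast in spots that the border rule did not use. In the interior, 162 and 211 collagen-rich spots were set against 809 and 1055 collagen-poor ones. Of 13662 genes tested there, 408 were higher (2.99%) and 405 lower (2.96%). C was lower in the interior, with a median of 12.3 and 18.7 per 10000 in collagen-rich interior spots. Those spots had a median of 18346 and 1440 UMIs in tumors 1 and 2, against 22198 and 15160 in collagen-poor interior spots. Low-UMI areas held 46.9% and 60.2% of them, against 25.2% and 30.7% of the collagen-poor ones. In tumor 2 the lowest C of a collagen-rich interior spot was 13.9 per 10000, which shallow spots reach with few collagen UMIs. Of the 477 genes higher at the border 163 were also higher in the interior, which is 34.2% of the border list and 40.0% of the interior list. Tested directly over 13128 genes, the border effect exceeded the interior effect for 201 genes (1.53%) and lay below it for 41 (0.312%), and 122 of the 477 were among the 201.

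Several matrix genes were higher in the collagen-rich spots of both zones, and a set of complement, acute phase and matrix genes changed more at the border. SPARC had a log2 fold change of 2.86 at the border and 1.90 in the interior, and COL5A2 had 2.47 at the border and 1.86 in the interior. Both differences were called, at 0.93 ± 0.17 for SPARC and 0.59 ± 0.15 for COL5A2. ACTA2 was at 2.19 at the border and 1.97 in the interior, and that difference did not pass (0.20 ± 0.17, adjusted p = 0.71). TNXB did not pass in the interior (0.28), and its difference was 4.44 ± 0.62. SAA1 differed by 4.04 ± 0.39, SFRP2 by 3.57 ± 0.49, THBS3 by 2.89 ± 0.42, CFP by 2.55 ± 0.37 and CFB by 2.45 ± 0.28 on the log2 scale. The complement list held 5 such genes of 11 tested and none in the other direction.

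Hypoxia genes differed between the zones. In both zones the collagen-rich spots were shallower and lay more often in low-UMI areas than the collagen-poor ones, as given above. At the border 3 of 24 were higher in collagen-rich spots and none was lower, with a list median of log2 0.29, while in the interior none was higher and 23 were lower, with a median of -0.91. The difference was called for 19 of 24, all with the border effect above the interior effect. CA9 was at log2 1.17 at the border and -1.21 in the interior (difference 2.40 ± 0.25), and VEGFA at 0.79 and -0.95 (difference 1.71 ± 0.20). The collagen enzymes that respond to hypoxia followed, with LOX at 0.00 and -1.31, P4HA1 at 0.31 and -0.88, and PLOD2 at 0.26 and -0.89. S phase genes showed the reverse order: none of 26 was higher in collagen-rich spots at the border and 14 were in the interior, and 4 differences were called, all negative. Among the named genes the most negative differences were those of MYH1 (-9.96 ± 0.77), ACTA1 (-8.76 ± 0.80), FAP (-3.93 ± 0.94) and MYLPF (-3.09 ± 0.59). The 3 muscle genes among them rest on tumor 2, where the collagen-rich interior spots held 855 muscle marker UPM against 27.5 in collagen-poor interior spots.

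**Figure D5:**
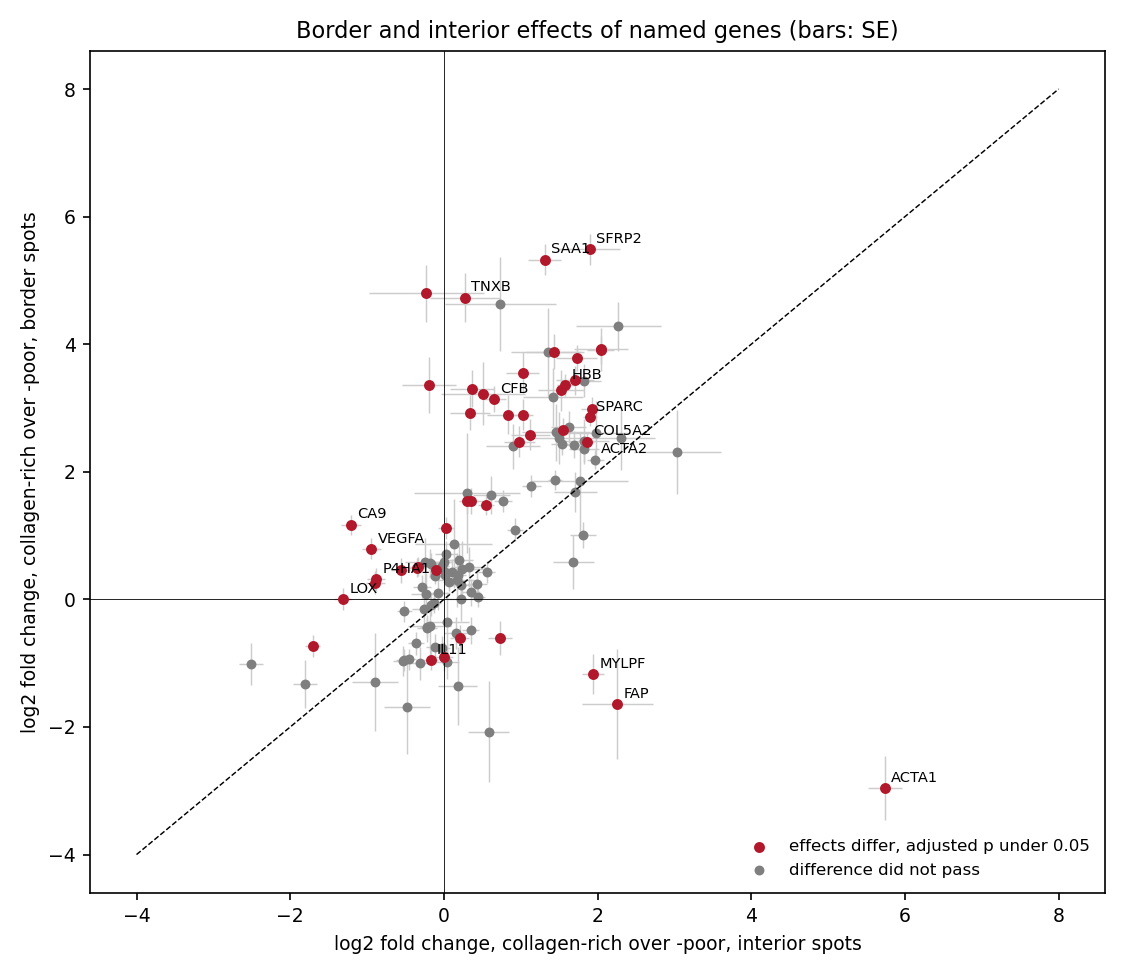
Border against interior log2 fold change with SE for the 123 named genes tested in both, and the line of equal effects. Of these 46 differed between the zones at an adjusted p under 0.05. SAA1, SFRP2 and TNXB lie far above the line, CA9 and VEGFA lie in the upper left, and ACTA1, MYLPF and FAP lie below it.

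Calls for these differences depended on pairing the sums by tumor and zone: without that block edgeR called none of 13128 genes (1440 at an unadjusted p under 0.05), and DESeq2 called 53. With 2 tumors and 1 residual degree of freedom, the border test draws most of its estimate of the spread from other genes. The interior test, also with 1, took that estimate wholly from other genes, so its p-values hold no spread of the gene itself.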

How the data were processed

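Sections of 2 tumors were measured with Visium. The authors deposited UMI counts per feature and spot made with Space Ranger, version 1.3.0 per the file headers, with build hg38 per the submitters' processing notes; tissue flags and array positions came with the counts, and images were not used here. The members, gene lists and tests were chosen with earlier results of these data known. Counts of 36601 features were summed per tumor over each group of spots, because the replicate is the tumor and not the spot. COL1A1, COL1A2 and COL3A1 were left out of sums, library sizes and tests. The sums were tested with edgeR 4.0.16 (filterByExpr, TMM, glmQLFit and glmQLFTest, tumor as a block, Benjamini-Hochberg over all genes tested, threshold 0.05) in R 4.3.3. The tumor is the block because both sums of a tumor come from 1 section. The difference between zones was tested on 8 sums with tumor by zone as the block. CPM are counts per 1000000 after TMM normalisation, and UPM are UMIs per 1000000 with no TMM factor. A fold change of a gene near 0 in a group depends on edgeR's prior count. Counts within lists include members that passed the filter because one group was high, so they describe and support nothing further.

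Named genes were the 15 highest and 12 lowest called genes with at least 20 CPM on average and the same sign in both tumors, every tested member of the lists other fibrillar collagens, collagen assembly, matrix glycoproteins, small proteoglycans and fibroblast markers, the 2 members with the largest change of each other list, and the 10 largest differences. Other called list members and patch genes were named after their values were seen. Depth was 58661164 and 39735490 UMIs in kept spots. Fits were tested on simulated data. Alternatives changed the normalization, the filter, the test (DESeq2 1.42.0), the block, depth, spot choice and border. Some items withheld for evaluation are not reported here.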

Additional observations from a re-analysis of the deposited data

Results flagged for a closer look

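For 49 of the 133 named genes the collagen-rich effect at the border differed from that in the interior in edgeR's test of the difference itself (adjusted p under 0.05). The values are border minus interior log2 fold changes, 41 of them positive and 8 negative, and no explanation was tested.

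Among mast cell, blood, fat and macrophage genes the differences were 6.38 for CPA3, 5.03 for LTC4S, 2.71 for FABP4, 2.51 for HBD, 1.80 for APOE and 1.73 for HBB. Among complement, acute phase, metallothionein and interferon genes they were 4.04 for SAA1, 2.55 for CFP, 2.45 for CFB, 2.44 for MT1B, 2.04 for MT1M and 1.14 for IRF7. Fibroblast and signalling genes differed by 3.57 for SFRP2, 3.52 for TGFBR3, 1.86 for CXCL12 and 1.72 for PDGFRA.

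Among matrix and membrane genes the differences were 4.71 for LGI2, 4.44 for TNXB, 2.89 for THBS3, 2.04 for VCAN, 1.85 for EFEMP2, 1.69 for MFAP5, 1.43 for LAMA4, 1.42 for COL16A1, 1.21 for FN1, 1.07 for FBN1, 1.03 for PMP22, 0.89 for COL5A1 and 0.59 for COL5A2. Among collagen assembly genes they were 1.29 for LOX, 1.17 for P4HA1, 1.14 for PLOD2, 1.02 for PCOLCE, 1.01 for P4HA2, 0.93 for SPARC, 0.85 for LOXL2, 0.85 for PLOD1 and 0.54 for PPIB. CA9 differed by 2.40, VEGFA by 1.71 and HSPA1B by 0.93.

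The negative differences were -0.78 for IL11, -0.84 for DLGAP5, -0.91 for MAGEF1, -1.33 for DTL, -3.09 for MYLPF, -3.93 for FAP, -8.76 for ACTA1 and -9.96 for MYH1. CPA3, LGI2 and MYH1 did not pass the low-count filter in the interior, so their differences have no interior effect beside them and their size depends on edgeR's prior count. FAP had 0 UMIs in the collagen-rich border sum of tumor 2, and the muscle genes rest on tumor 2.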

How the results depend on the processing

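All 477 genes higher at the border kept their direction wherever they were tested, except 1 with spots thinned to 2000 UMIs and 1 without macrophage-marker spots, but the counts moved. The border counts below stand against 477 higher and 29 lower. Lower genes numbered 47 with DESeq2's size factors, 94 with library size alone, 63 without the low-count filter, 47 with spots of at least 2000 UMIs, 143 without the low-UMI areas, 211 with collagen-rich spots taken from the 80th percentile, 73 with collagen-poor spots taken up to the 10th, 142 with a border of 8 steps, 50 with C from COL1A1 and COL1A2, 50 with C from COL3A1, 227 without macrophage-marker spots and 7 without muscle-marker spots. Higher and lower genes numbered 201 and 3 with DESeq2, 173 and 4 without the replicate block (tumor), 171 and 6 with thinned spots, 280 and 1 with a border of 3 steps, 749 and 183 with the frame edge as border, and 266 and 8 for spots at 1 step. Matched spots gave 243 higher.

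In the interior (408 higher, 405 lower) higher genes numbered 651 with library size alone and 271 without the filter, and lower genes 608 without the low-UMI areas. Higher and lower genes numbered 50 and 50 with DESeq2, 97 and 81 without the replicate block, and 20 and 21 with thinned spots. Of the difference (201 positive, 41 negative), negative calls numbered 100 with library size alone, which moved the median of all genes by -0.109, 71 without the filter and 68 without the low-UMI areas. Positive and negative calls numbered 53 and 0 with DESeq2 (583 genes at an unadjusted p under 0.05), 0 and 0 without the replicate block (1440), 337 and 93 with at least 2000 UMIs, 48 and 14 with thinned spots, 341 and 134 from the 80th percentile, and 103 and 5 up to the 10th.

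At the border MYLPF turned to 0.0911 with collagen-poor spots up to the 10th percentile and 0.32 without macrophage-marker spots, MYH1 to 0.15 with 8 steps and 0.24 with the frame edge, and ACTA1 to 0.82 without muscle-marker and 0.48 without macrophage-marker spots. With 1 tumor left out no residual degree of freedom remained and no count could be had. ACTA1 then ranged from -4.14 to 0.42 at the border, and MYLPF from -0.0184 to 2.80 and EMILIN1 from -0.12 to 1.77 in the interior. With thinned spots HBD was at -0.50 in the interior. These causes were not tested. The alternatives of 1 step, macrophage-marker spots and the largest off-tissue area were chosen after seeing the data.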

Other observations

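LGI2, a secreted protein best known from neurons, was the second highest of the named genes. It stood at 12.2 and 91.1 CPM in collagen-rich border spots of tumors 1 and 2, against 0.237 and 0.442 CPM in collagen-poor ones. LGI2 passed the low-count filter only through the collagen-rich sums. CPXM1, a carboxypeptidase-like secreted protein, was one of the few leading genes at equal level in both tumors, with 39.1 and 39.7 CPM against 1.58 and 2.80 CPM. CPXM1 likewise passed the low-count filter only through the collagen-rich sums. PMP22, listed as a nerve sheath gene, stood at 148 and 308 CPM, against 95.8 and 94.8 CPM, while SOX10 was at 0 in all 4 sums and S100B had no UMI in the collagen-rich sums. KRT19 alone of the 6 keratins of the line passed, at 511 and 378 CPM against 320 and 300 CPM.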
